A study of Mus musculus with 6 samples.

Results

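The heat shock proteins and the DNAJ proteins are the chaperones that keep other proteins folded. The genes described here are all those whose single annotated symbol begins with Hspa, Hspb, Hspd, Hspe, Hsph, Hsp90, Dnaja, Dnajb or Dnajc. They number 72 of the 18193 genes that a probe set with 1 symbol names, and they are read by 174 probe sets. The rule uses symbols only and no measured value. Of these genes, 40 were placed in the cytosol and nucleus, 12 in the endoplasmic reticulum (ER), 9 in the mitochondrion and 5 on vesicles and endosomes. The placements came from general knowledge of the proteins, and 6 genes were not assigned. Both the rule and the placements were chosen with earlier results of these data known. The prefix also brings in Hspbp1, Hspbap1 and Hspb11, which are named for other properties and are not small heat shock proteins of the usual kind.

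HSP70 proteins (Hspa genes) bind exposed stretches of unfolded proteins and release them in a cycle driven by ATP. DNAJ proteins bring clients to HSP70 and start its ATP hydrolysis, HSP110 proteins (Hsph1, Hspa4, Hspa4l) exchange its nucleotide, and HSP90 proteins receive clients from it at a later step. Small heat shock proteins (Hspb genes) hold unfolding proteins without ATP, and the chaperonin of Hspd1 and Hspe1 folds proteins inside the mitochondrion. Heat shock factor 1 raises the cytosolic genes when unfolded proteins accumulate, and the unfolded protein response raises the ER members. Hepatocytes secrete most plasma proteins and so depend on ER chaperones.

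The arrays hold total RNA from livers of male mice on a mixed background, aged 8 weeks and fasted for 24 h, kept on chow with equal light and dark periods. There were 3 arrays of the genotype Mig-6 d/d and 3 of the genotype Mig-6 f/f, and Mig-6, encoded by Errfi1, restrains signalling by the epidermal growth factor receptor. The labels do not say what separates the alleles, what drives a deletion or in which cells. They also leave unsaid whether the 3 arrays of a genotype came from 3 animals, so p-values cover only the spread among arrays, which may be technical. The values are the deposited Affymetrix intensities per probe set. Differences are given as d/d minus f/f after quantile normalization, in log2 units of the intensity with 16 added, with the standard error (SE) of limma and n = 3 per genotype. The addition makes the differences of dim genes look smaller.

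Errfi1 averaged 63.2 ± 4.37 in d/d livers and 5494 ± 169 in f/f livers (intensity, SD, n = 3 each), which differed by -6.10 ± 0.10 (adjusted p = 5.07e-08 by limma and Benjamini-Hochberg). Array f/f 3 stood apart. Its control probe sets for 18S ribosomal RNA averaged 3807, against 218 to 455 on the other arrays, and its mean correlation with the others was 0.963, against 0.978 to 0.981. Array f/f 3 was the highest of the 6 arrays for 21 of the 64 tested chaperone genes and the lowest for 26, so a member's difference that moved by over 1.5 times when it was left out is also given without it. Summed intensities of 5 hepatocyte markers were 123555 to 125680 in d/d livers and 124513 to 125761 in f/f livers. Of 9 Kupffer cell markers, 8 lay lower in d/d livers (sum 2582 to 3298, against 2997 to 4284 in f/f livers). Of 7 stellate cell markers, 4 lay lower and 3 higher in d/d livers. Their sum was 2116 to 2565 in d/d livers and 2665 to 2968 in f/f livers. None of the markers of 9 cell types passed the test, and their part in the chaperone differences was not tested. In whole liver, fewer cells of a type and less RNA per cell cannot be told apart.

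No chaperone gene passed the test over all genes. Among those with the smallest p, Hsph1, Dnaja1, Dnajb1, Hsp90aa1, Hspa5 and Dnajb9 lay higher on all 3 d/d arrays than on all 3 f/f arrays, by 1.32 to 1.74 times. Dnajc18, with the second-ranking difference in size, lay lower on all 3 d/d arrays, but its other bright probe set gave 0.14. Of the 72 genes, 64 passed the brightness filter, which used the mean over all 6 arrays. None of them had a limma adjusted p under 0.05, a limit that 13 of 13718 genes (0.0948%) met. Unadjusted p was under 0.05 for 9 members that were higher in d/d livers (14.1%, against 4.77% of all genes) and for 2 that were lower (3.12%, against 3.08%). The genotypes did not overlap for 12 members with d/d above f/f (18.8%, against 7.86% of all genes) and for 4 with d/d below f/f (6.25%, against 6.82%). When arrays were weighted by their quality in limma, 4 of the 64 members passed, all of them higher in d/d livers. Over all genes, 214 of 13718 (1.56%) passed in either direction. The limma adjusted p of these members was 0.00576 for Hsph1, 0.0322 for Dnaja1, 0.0389 for Hsp90aa1 and 0.0470 for Hspa5.

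Over the tested members the median difference was 0.018, with 36 positive and 28 negative, and the median over all genes tested was -0.015. The quartiles were -0.13 and 0.16, and the range was -0.63 to 0.80. In the ER, 9 of 11 tested genes were positive (81.8%, against 46.4% of all genes), with a median of 0.15. There, 3 had an unadjusted p under 0.05 in the higher direction (27.3%, against 4.77% of all genes) and 0 in the lower. In the cytosol and nucleus, 20 of 35 were positive, with a median of 0.018. Under that p were 6 as higher (17.1%, against 4.77% of all genes) and 1 as lower (2.86%, against 3.08%). The mitochondrial median was -0.052 over 9 genes and the vesicle and endosome median -0.080 over 4, with 0 under that p in either place. Without array f/f 3, the median was 0.011 over all members, 0.093 in the ER, 0.037 in the cytosol and nucleus, -0.072 in the mitochondrion and -0.010 on vesicles and endosomes. The vesicle median was 0.065 when the dim filter was dropped or left out the lowest 20%, which adds Dnajc5b, and the mitochondrial one was -0.017 without array f/f 2. Among families, the 11 tested Dnajb genes had a median of 0.15. Of these, 4 were under an unadjusted p of 0.05, all higher in d/d livers (36.4%, against 4.77% of all genes). The 26 Dnajc genes had a median of -0.069, with 2 under that p, both lower (7.69%, against 3.08% of all genes).

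**Figure D1:**
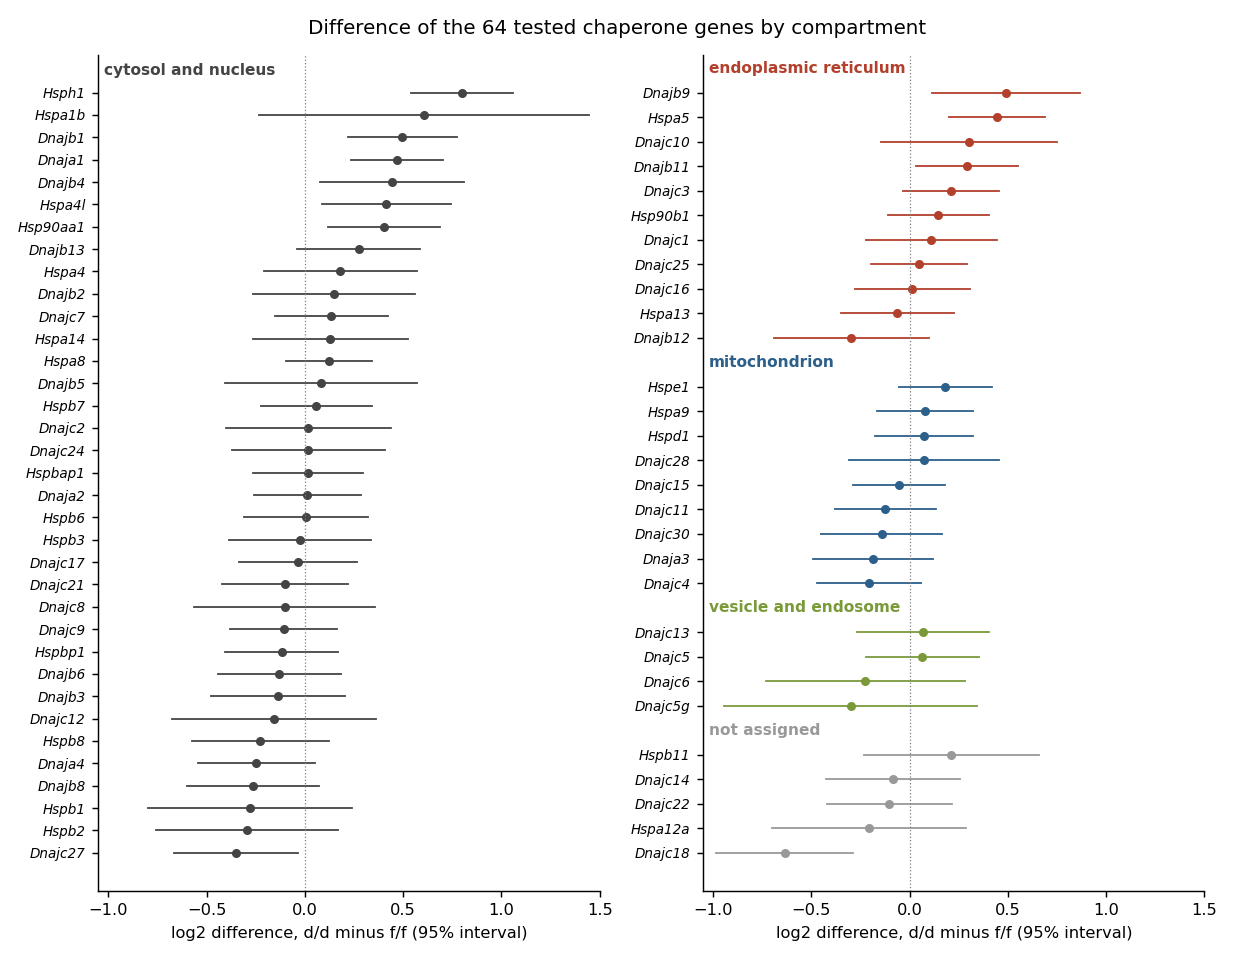
Differences of the 64 tested chaperone genes in log2 units, d/d minus f/f (horizontal axis), by compartment; points are the limma estimates and lines their 95% intervals, n = 3 arrays per genotype. The upper end of the cytosolic panel is held by Hsph1, and 9 of the 11 ER genes lie right of 0.

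Hsph1, the inducible HSP110 that recharges HSP70 with ATP, differed most. It read 292, 265 and 329 on the d/d arrays and 159, 154 and 177 on the f/f arrays (intensity). Every d/d array stood above every f/f array, and the gap exceeded the spread within either genotype. The difference was 0.80 ± 0.11, or 1.74-fold on the scale with 16 added (limma adjusted p = 0.0700, 95% interval 0.54 to 1.06). Its other probe set read 169 ± 25.1 in d/d livers and 87.7 ± 5.50 in f/f livers (SD, n = 3 each), a difference of 0.84. The adjusted p was 0.0415 for the mean of both probe sets, 0.00576 with array weights and 0.0257 without array f/f 3, in a range of 0.00576 to 0.417 over the alternatives.

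The other HSP110 genes were less clear. Hspa4l, an HSP110 known best from testis, read 154, 132 and 112 on the d/d arrays and 105, 97.6 and 89.6 on the f/f arrays. The genotypes did not overlap, though the nearest arrays lay close together, and the difference was 0.41 ± 0.14 (limma adjusted p = 0.494). Its other probe set above the brightness limit overlapped and gave 0.17. The mean of its probe sets gave 0.16 (limma adjusted p = 0.74). Hspa4, the most widely expressed HSP110, read 448, 455 and 486 on the d/d arrays and 475, 467 and 309 on the f/f arrays. Only f/f 3 stood below the rest. The difference of 0.18 ± 0.17 (limma adjusted p = 0.844) became -0.019 without this array.

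Among the HSP70 genes of the cytosol, Hspa8 is the constitutive form and Hspa1b a strictly inducible one. Hspa8 read 6243, 6609 and 6298 on the d/d arrays and 5837, 6316 and 6080 on the f/f arrays. The deposited values overlapped and the normalized ones did not, with a difference of 0.12 ± 0.095 (limma adjusted p = 0.813). The other 3 probe sets of Hspa8 differed more, by 0.20, 0.39 and 0.60, and their mean with the first gave 0.33 (limma adjusted p = 0.274). Hspa1b read 651, 754 and 661 on the d/d arrays and 404, 248 and 875 on the f/f arrays. The d/d values sat together, while f/f held both the lowest and the highest array. The difference was 0.61 ± 0.37 (limma adjusted p = 0.772), with a 95% interval of -0.23 to 1.44. Without array f/f 3 it was 1.07 and passed (limma adjusted p = 0.0494), and without f/f 2 it was 0.21. Hspa1a and Hspa1b are near-identical neighbours, so probe sets named for Hspa1b may read both. Hspa14, an HSP70 that works at the ribosome, gave 0.13 ± 0.17 (limma adjusted p = 0.889), and -0.072 without array d/d 2.

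The J proteins that serve these HSP70s in the cytosol included 3 with all d/d arrays above all f/f arrays. Of the other J proteins placed in the cytosol and nucleus, Dnajb8 and Dnajc27, given below, were separate in the lower direction. Dnaja1, a farnesylated partner of Hspa8, read 2323, 2482 and 2550 on the d/d arrays and 1821, 1744 and 1852 on the f/f arrays. The genotypes stood well apart, with a narrow spread inside each, and the difference was 0.47 ± 0.10 (limma adjusted p = 0.208). The other probe sets gave 0.11 and 0.20. Dnajb1, the classical HSP40 and the main helper of HSP70 in refolding and disaggregation, read 343, 314 and 408 on the d/d arrays and 246, 234 and 261 on the f/f arrays. All d/d arrays were above all f/f arrays, with a difference of 0.50 ± 0.12 (limma adjusted p = 0.253), and its other probe set gave 0.28, also without overlap. Dnajb4, a near relative of Dnajb1, read 680, 566 and 640 on the d/d arrays and 549, 473 and 371 on the f/f arrays. Its genotypes met closely, at d/d 2 and f/f 1. The difference was 0.44 ± 0.16 (limma adjusted p = 0.520) and 0.29 without array f/f 3.

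Other cytosolic J proteins lay on both sides of 0. Dnajb13, a J protein of sperm flagella, gave 0.27 ± 0.14 (limma adjusted p = 0.702), and it, Dnajb2 and Dnajc7 were chosen after their values were seen. Dnajb2, a J protein best known from neurons, gave 0.15 ± 0.18 and -0.036 without array f/f 3, and Dnajc7, which passes clients between HSP70 and HSP90, gave 0.13 ± 0.12 and 0.037 without it. Dnaja2, which also partners Hspa8, gave 0.013 ± 0.12 and -0.063 without array f/f 3. Dnajb6, an inhibitor of polyglutamine aggregation, gave -0.13 ± 0.14 and -0.26 without that array. Dnaja4 read 82.4, 75.8 and 56.9 on the d/d arrays and 93.1, 76.3 and 97.7 on the f/f arrays, with f/f 2 inside the d/d range, and differed by -0.25 ± 0.13 (limma adjusted p = 0.721). Dnajb8, a J protein best known from testis, read 135, 135 and 106 on the d/d arrays and 136, 136 and 197 on the f/f arrays. All d/d arrays were below all f/f arrays, but the genotypes nearly met. The difference was -0.27 ± 0.15 (limma adjusted p = 0.740), or -0.13 without array f/f 3. Dnajc12, a helper of the aromatic amino acid hydroxylases of the liver, read 159, 175 and 192 on the d/d arrays and 200, 279 and 145 on the f/f arrays. These overlapped, and the difference of -0.16 ± 0.23 (limma adjusted p = 0.898) became 0.080 without array f/f 2 and -0.42 without f/f 3.

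HSP90 of the cytosol was represented by its inducible form, since Hsp90ab1 was not analysed here. Hsp90aa1 read 1741, 1882 and 1804 on the d/d arrays and 1365, 1229 and 1553 on the f/f arrays. The genotypes did not overlap, and f/f 3 was the nearest f/f array. The difference was 0.40 ± 0.12 (limma adjusted p = 0.398), and the other probe sets above the brightness limit gave 0.34, 0.39 and 0.46. A probe set of Hsp90aa1 below the limit gave -0.15, and the mean of all its probe sets gave 0.29 (limma adjusted p = 0.443). Of 23 tested genes for HSP70 nucleotide exchange and HSP90 co-chaperones, 11 were positive and 12 negative, with a median of -0.041. None passed, 2 had an unadjusted p under 0.05 as higher (8.70%, against 4.77% of all genes) and 0 as lower. These were Cdc37l1, a relative of the kinase co-chaperone Cdc37, at 0.46 ± 0.13 (limma adjusted p = 0.319), and Chordc1, an HSP90 partner, at 0.49 ± 0.16 (limma adjusted p = 0.471). With the mean of its probe sets, Cdc37l1 gave only 0.12 (limma adjusted p = 0.778). The cytosolic chaperonin TRiC and its partner prefoldin had 8 of 13 tested genes positive, a median of 0.010 and 0 under that p. Cct4 gave 0.28 ± 0.15 and Cct6a -0.18 ± 0.098 (limma adjusted p = 0.737 and 0.741), both subunits of TRiC. Cct4 gave 0.11 without array f/f 3 and 0.056 with the mean of its probe sets.

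**Figure D2:**
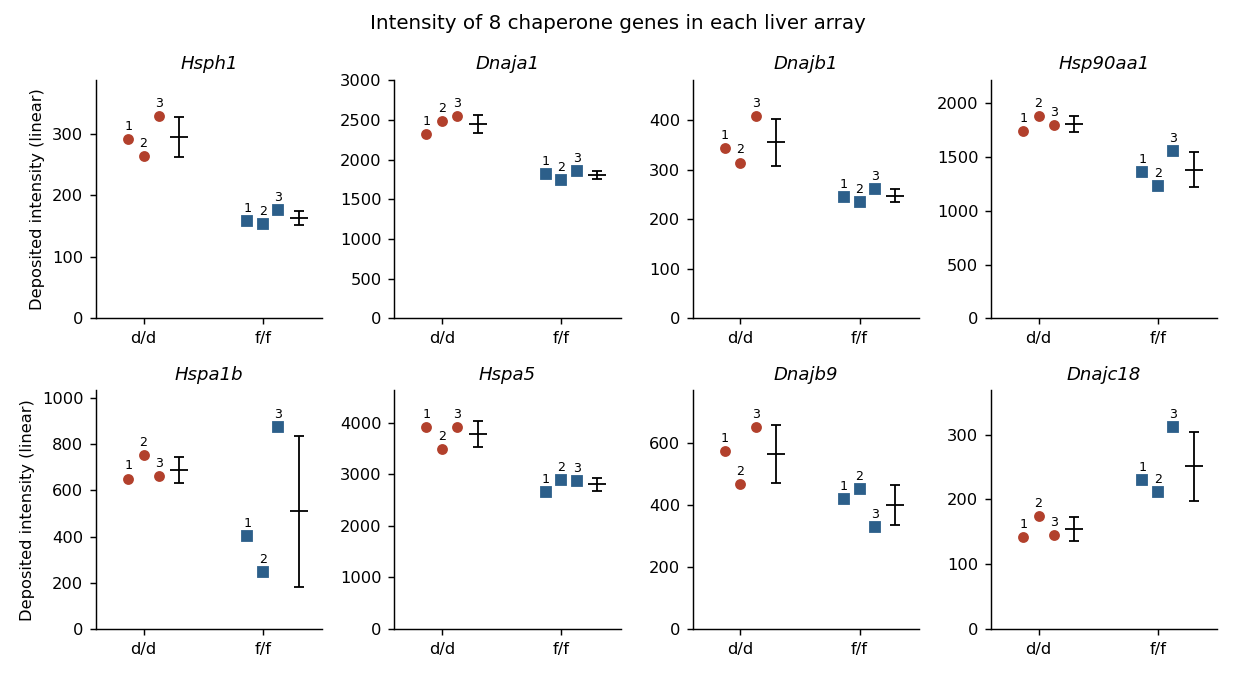
Deposited intensity (vertical axes, linear, from 0) of 8 chaperone genes on each array, d/d left and f/f right; numbers are replicates, and the bars are the mean and SD of 3 arrays. For Hspa1b, f/f 3 at 875 is above every d/d array, while for the other 7 genes the genotypes do not overlap.

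Heat shock factors bind repeats of GAA in alternating orientation, and the promoter windows of all members were searched for them. The windows are the 300 bases around each RefSeq gene start in GRCm38.p6, 250 before and 50 after, and 59 of the 72 genes matched at least 1 of them. A pair of units (GAA and TTC, or TTC and GAA, 2 bases apart, read on both strands) stood in 15.1% of all 32851 windows and in 23.7% of the 76 member windows. A run of 3 such units, which always holds a pair, stood in 0.603% of all windows and in 6 member windows, those of Hsph1, Dnajb6, Hspd1 and Hspe1. These windows repeat some runs: alternative starts of Hsph1 share 1 run, as do those of Dnajb6, and Hspd1 and Hspe1 share theirs. In Hsph1 the run lies after the start, at bases 16 to 28 or 37 to 49. A match describes the letters only. The pair was not in the windows of Dnajb1 and Hspa4l, and it was in those of Hspb1, Hspb8, Dnaja4 and Dnajc27, whose differences were negative. Hsp90aa1 and Hspa8 were not among the genes with a pair either. The stretches below are shown because these genes have a match and are among those with the larger cytosolic differences (Hsph1, Hspa1b, Dnaja1, Dnajb4) or, for Dnajb6, because it has the longer run and a difference of the other sign; capitals mark the units with the bases between them.
Hsph1, chr5:149636286-149636330, minus strand: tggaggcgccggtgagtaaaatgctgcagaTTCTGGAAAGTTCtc
Hspa1b, chr17:34959305-34959372, minus strand: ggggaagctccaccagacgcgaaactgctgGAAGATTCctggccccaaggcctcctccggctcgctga
Dnaja1, chr4:40722314-40722381, plus strand: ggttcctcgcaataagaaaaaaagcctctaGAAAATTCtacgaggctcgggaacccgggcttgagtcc
Dnajb4, chr3:152193822-152193889, minus strand: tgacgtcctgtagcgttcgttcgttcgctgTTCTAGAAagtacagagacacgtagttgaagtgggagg
Dnajb6, chr5:29735822-29735894, plus strand: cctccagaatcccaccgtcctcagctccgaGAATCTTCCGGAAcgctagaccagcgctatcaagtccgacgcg

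The genes with the Hspb prefix were split in direction. Of 9 tested, 4 were positive and 5 negative, with a median of -0.025, and 0 had an unadjusted p under 0.05. These counts include Hspb11 and Hspbap1, which were positive, and Hspbp1, which was negative. Among the small heat shock proteins proper, Hspb1, Hspb2, Hspb3 and Hspb8 were negative. Hspb6 and Hspb7 were positive, at 0.0066 and 0.059. Without array f/f 3, Hspb3 turned to 0.056, and Hspb6 and Hspb7 gave 0.060 and 0.081. Hspb1, the stress-induced small heat shock protein also called HSP25, read 199, 256 and 177 on the d/d arrays and 232, 191 and 370 on the f/f arrays. The genotypes overlapped and f/f 3 was highest. The difference of -0.28 ± 0.23 (limma adjusted p = 0.818) was -0.032 without array f/f 3. Hspb8, which works with Bag3 in selective autophagy, read 656, 833 and 738 on the d/d arrays and 707, 1021 and 917 on the f/f arrays, with overlap and a difference of -0.23 ± 0.15 (limma adjusted p = 0.797). It ran from -0.36 without array f/f 1 to -0.12 without f/f 2. Hspb2, a muscle member, was lifted in f/f by array f/f 3 alone. Its difference was -0.29 ± 0.20 (limma adjusted p = 0.799), and -0.043 without that array.

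In the ER, Hspa5 (BiP) is the HSP70 that binds nascent secretory proteins and holds the stress sensors inactive. It read 3920, 3481 and 3915 on the d/d arrays and 2658, 2896 and 2863 on the f/f arrays. The lowest d/d array was well above the highest f/f array, and the difference was 0.44 ± 0.11, or 1.36-fold (limma adjusted p = 0.243). A bright probe set of Hspa5 gave 0.52, with 2467 ± 191 in d/d livers and 1744 ± 43.4 in f/f livers (SD, n = 3 each), and a dimmer one gave 0.0025. Hsp90b1 (GRP94), the HSP90 of the ER, read 3087, 3028 and 3407 on the d/d arrays and 2966, 3136 and 2688 on the f/f arrays. These overlapped, and the difference was 0.15 ± 0.11 (limma adjusted p = 0.813), or 0.085 without array f/f 3.

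The J proteins of the ER lumen lay on the same side as Hspa5. Dnajb9 (ERdj4), which returns BiP to the stress sensor Ern1, read 574, 466 and 652 on the d/d arrays and 418, 452 and 330 on the f/f arrays. The genotypes did not overlap, but d/d 2 and f/f 2 nearly met, and the difference was 0.49 ± 0.16 (limma adjusted p = 0.461). It was 0.36 without array f/f 3. Dnajb11 (ERdj3), a secreted co-chaperone of BiP, read 488, 413 and 489 on the d/d arrays and 386, 369 and 371 on the f/f arrays. All d/d arrays were above all f/f arrays, with a difference of 0.29 ± 0.11 (limma adjusted p = 0.564). Dnajc3 (P58IPK), a lumenal J protein that presents clients to BiP, read 901, 969 and 956 on the d/d arrays and 864, 840 and 761 on the f/f arrays, again without overlap. Its difference was 0.21 ± 0.11 (limma adjusted p = 0.706), and its other probe sets gave 0.074 to 0.21.

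The other tested ER members ranged from -0.30 to 0.30. Dnajc10 (ERdj5), a disulfide reductase, stood at 0.30 ± 0.20 (limma adjusted p = 0.788) and at 0.072 without array f/f 3. Dnajc1, Dnajc25, Dnajc16 and Hspa13 lay between -0.062 and 0.11 with all arrays, and between -0.039 and 0.20 without f/f 3. Dnajb12, a J protein of the ER membrane that faces the cytosol, was on the other side. It read 158, 180 and 146 on the d/d arrays and 187, 162 and 273 on the f/f arrays, with a difference of -0.30 ± 0.17 (limma adjusted p = 0.758) and of -0.12 without array f/f 3.

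Genes of ER folding and the unfolded protein response that carry no chaperone prefix were counted for comparison. Their list was chosen with earlier results of these data known. Of 23 tested, 18 were positive and 5 negative, with a median of 0.13. None passed, 7 had an unadjusted p under 0.05 as higher (30.4%, against 4.77% of all genes) and 0 as lower, and 10 did not overlap with d/d above f/f (43.5%, against 7.86%). Herpud1, which builds the ER degradation complex, read 4124, 3791 and 4250 on the d/d arrays and 2057, 2839 and 2549 on the f/f arrays. The genotypes stood far apart, with a difference of 0.74 ± 0.14 (limma adjusted p = 0.133). Manf, a secreted protein of the same response, gave 0.56 ± 0.12 (limma adjusted p = 0.216). Not every gene of the response lay higher. Chosen after their values were seen, Xbp1, the transcription factor spliced by Ern1, differed by 0.048 ± 0.10 and Atf4, the factor of the PERK branch, by -0.26 ± 0.13 (limma adjusted p = 0.929 and 0.707).

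Factors of the unfolded protein response bind the ER stress element, CCAAT and CCACG 9 bases apart, and its second form, ATTGG and CCACG 1 base apart. On both strands the first stood in 0.119% of all windows and the second in 0.0365%. Of the 11 ER genes with a window, 3 held the first (Hspa5, Hsp90b1 and Dnajc3) and 1 the second (Dnajb11), and no member outside the ER held either. These are the ER genes whose values are given above, shown with the element in capitals; Hsp90b1 holds it on each strand. Dnajb9 had neither in its window.
Hspa5, chr2:34771995-34772073, plus strand: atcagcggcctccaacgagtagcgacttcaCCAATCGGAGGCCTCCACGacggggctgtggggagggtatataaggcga
Hsp90b1, chr10:86705503-86705686, minus strand: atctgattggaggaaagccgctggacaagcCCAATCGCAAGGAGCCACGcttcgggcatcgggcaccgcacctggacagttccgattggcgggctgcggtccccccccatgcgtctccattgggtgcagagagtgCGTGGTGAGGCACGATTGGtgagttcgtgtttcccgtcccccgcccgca
Dnajc3, chr14:118937797-118937875, plus strand: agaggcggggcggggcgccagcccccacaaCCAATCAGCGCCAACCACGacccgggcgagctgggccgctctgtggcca
Dnajb11, chr16:22857822-22857874, plus strand: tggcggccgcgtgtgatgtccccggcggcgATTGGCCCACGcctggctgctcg

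The mitochondrial chaperones lay close to 0. Hspd1 (HSP60), the chaperonin ring, read 2954, 3086 and 3148 on the d/d arrays and 3137, 3100 and 2700 on the f/f arrays. The genotypes overlapped, f/f 3 was the lowest array, and the difference was 0.074 ± 0.11 (limma adjusted p = 0.90, 95% interval -0.18 to 0.32), or 0.0059 without that array. Hspe1 (HSP10), its lid, read 2181, 2208 and 2234 on the d/d arrays and 2127, 2045 and 1839 on the f/f arrays. These did not overlap, with f/f 3 again lowest, and the difference was 0.18 ± 0.10 (limma adjusted p = 0.753). Its other probe set overlapped and gave 0.072. Hspa9 (mortalin), the HSP70 of the import motor, gave 0.078 ± 0.11 (limma adjusted p = 0.892) and 0.015 without array f/f 3, and Dnaja3, its J protein, gave -0.18 ± 0.13 (limma adjusted p = 0.803). Dnaja3 gave -0.11 without array f/f 3 and -0.31 without f/f 2. Dnajc4 read 127, 132 and 131 on the d/d arrays and 144, 136 and 184 on the f/f arrays, which did not overlap. Its difference was -0.20 ± 0.12 (limma adjusted p = 0.753), and -0.12 without array f/f 3. The genes of mitochondrial folding and proteases outside the prefixes had 3 of 12 positive and a median of -0.095. Of these, 1 had an unadjusted p under 0.05, as lower (8.33%, against 3.08% of all genes). It was Clpx, the unfolding subunit of the matrix ClpXP protease, with 1046 ± 154 in d/d livers and 1603 ± 272 in f/f livers (intensity, SD, n = 3 each). Its difference was -0.58 ± 0.16 (limma adjusted p = 0.319), but the mean of its probe sets gave only -0.17 (limma adjusted p = 0.804). Clpb, a disaggregase, gave -0.21 ± 0.12 (limma adjusted p = 0.759).

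Hspd1 and Hspe1 are transcribed away from each other, and the starts whose windows hold the run of heat shock units lie 216 bases apart, so that both windows cover the same run, read on opposite strands. It is shown in both readings because the same letters face both genes. The genotypes were separate for the tested probe set of Hspe1 only, its other probe set overlapped, and neither gene passed the test. The capitals hold 2 overlapping matches of 3 units.
Hspd1, chr1:55088029-55088106, minus strand: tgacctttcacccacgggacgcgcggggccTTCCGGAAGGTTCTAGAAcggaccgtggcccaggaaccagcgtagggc
Hspe1, chr1:55088029-55088106, plus strand: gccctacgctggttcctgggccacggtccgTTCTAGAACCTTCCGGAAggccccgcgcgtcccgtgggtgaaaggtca

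The remaining J proteins of the Dnajc group share the J domain and little else. Dnajc18, a membrane-bound J protein, differed most in the lower direction. It read 142, 175 and 145 on the d/d arrays and 230, 211 and 312 on the f/f arrays. All d/d arrays were below all f/f arrays, and the difference was -0.63 ± 0.15 (limma adjusted p = 0.25). It was -0.50 without array f/f 3. Its other bright probe set, however, gave 0.14, and the mean of its probe sets gave -0.17 (limma adjusted p = 0.691). Dnajc27, a small GTPase with a J domain, read 51.4, 50.5 and 57.3 on the d/d arrays and 67.4, 59.7 and 97.1 on the f/f arrays, all near the brightness limit of 48.4. They did not overlap, with a difference of -0.35 ± 0.14 (limma adjusted p = 0.578), and -0.24 without array f/f 3. On vesicles, Dnajc5 (cysteine string protein), which guards secretory vesicle proteins, gave 0.065 ± 0.12, and Dnajc13, an endosomal protein, gave 0.068 ± 0.15. Dnajc6 (auxilin), which uncoats clathrin vesicles with Hspa8, gave -0.23 ± 0.22. All turned sign without array f/f 3, to -0.043 for Dnajc5, -0.088 for Dnajc13 and 0.026 for Dnajc6.

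Across the arrays, the 12 members with d/d above f/f were not equally high on each d/d array. Their median deviation from the mean of the 6 arrays was 0.24, 0.094 and 0.23 on d/d 1, 2 and 3, and -0.13, -0.18 and -0.20 on f/f 1, 2 and 3, a description of genes picked by these values. Array d/d 2 was thus the nearest of the d/d arrays to the f/f arrays for these genes. Over all 64 members, the median deviation ran from -0.0040 to 0.039 on the d/d arrays and from -0.11 (f/f 3) to 0.013 on the f/f arrays.

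**Figure D3:**
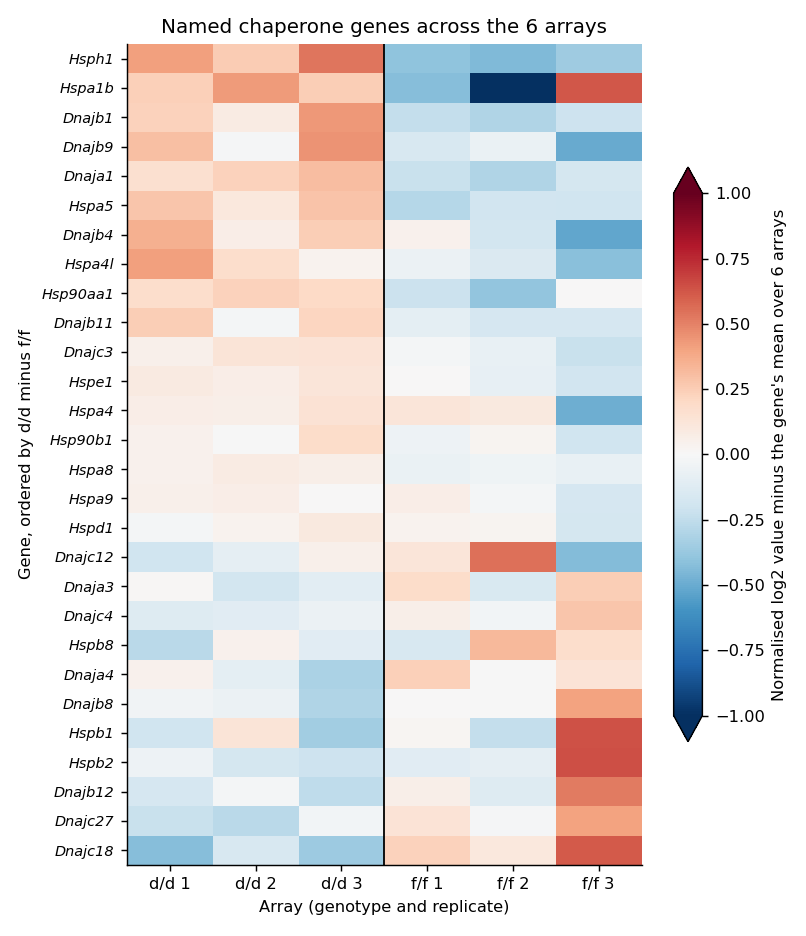
Normalized log2 value minus the gene's mean over the 6 arrays (colour) for 28 chaperone genes (vertical axis, ordered by d/d minus f/f) on each array (horizontal axis), d/d left of the line. Rows at the top are red on the d/d side, the lowest value of Hspa1b (f/f 2) lies past the colour limit of 1.0, and the strongest colours at the bottom are those of f/f 3.

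Agreement between probe sets of a gene bears on each value. Among tested members, 39 had more than 1 probe set above the brightness limit, and in 27 of them all of these had the same sign. Hsph1, Hspa1b, Dnajb1, Dnaja1, Dnajb4, Hspa4l, Hsp90aa1, Hspa8, Dnajc3 and Hspe1 were among the 27, while Dnajc18, Hspa4 and Hspa9 were not. The 3 probe sets of Hspa1b gave 0.61, 0.74 and 0.77.

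**Figure D4:**
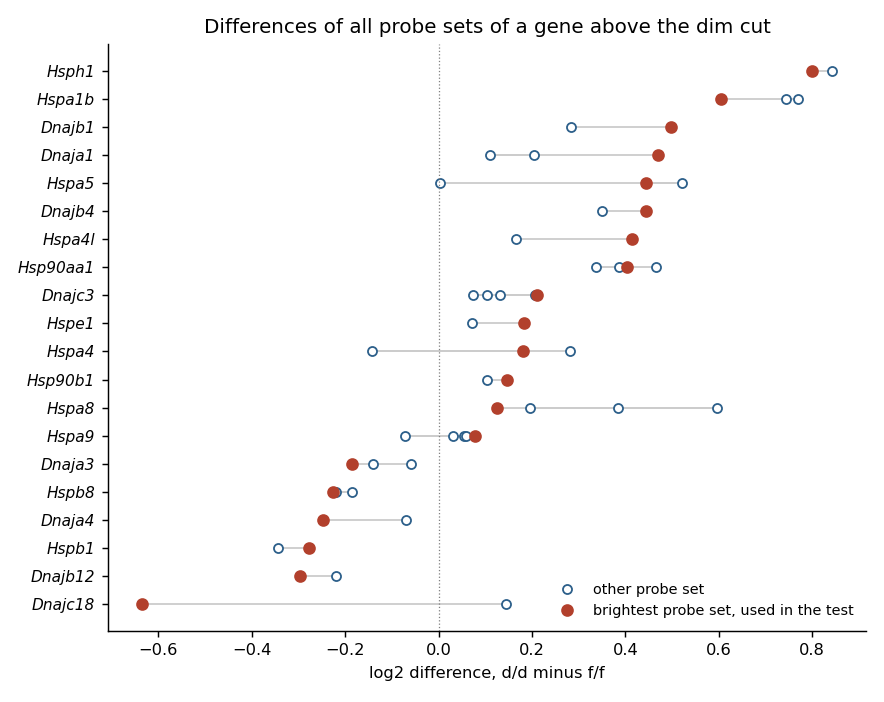
Difference of every probe set above the brightness limit in log2 units, d/d minus f/f (horizontal axis), for 20 chaperone genes (vertical axis); the filled point is the brightest probe set, used in the test, and open points are the others. Hsph1 and Hsp90aa1 have close values, while the probe sets of Hspa8 run from 0.12 to 0.60 and those of Dnajc18 lie on both sides of 0.

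Members below the brightness limit were not tested. These were Hspa1a, the twin of Hspa1b; Hspa1l and Hspa2, the HSP70s of testis; Hspa12b, Hspb9, Dnajb7, Dnajb14 and Dnajc5b. Their deposited intensities ran from 19.8 to 65.0 on the d/d arrays and from 25.3 to 62.8 on the f/f arrays. Hspa12b, an atypical HSP70 of blood vessels, ran from 45.8 to 65.0 on the d/d arrays and from 28.0 to 45.1 on the f/f arrays, and so did not overlap in deposited values. Of the regulators, Hsf1 was not analysed here, and Hsf2 and Hsf5 were below the limit. Hsf4 gave -0.099 ± 0.15 and Hsbp1, which binds Hsf1 and restrains it, -0.051 ± 0.11 (limma adjusted p = 0.90 and 0.928). Without array f/f 3 they gave 0.053 and -0.081. Cirbp, which responds to cooling, gave -0.17 ± 0.13 (limma adjusted p = 0.813), and -0.30 without that array.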

How the data were processed

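Biotin-labelled liver RNA was hybridized to Affymetrix mouse arrays, per the labels. The authors deposited 1 linear intensity for each probe set and array; the sources used here do not give the summarization, background correction or scaling behind it. Of 45101 probe sets, 34945 had 1 symbol in the platform annotation, 932 several, 9160 none, and 64 were controls; those with several or none and the controls were left out. The Entrez number of 34741 was found in the RefSeq gene table (GRCm38.p6) and 0 symbols changed.

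Values were taken as log2(intensity + 16). Array medians and lower and upper quartiles differed by up to 0.185, 0.143 and 0.160, above a tolerance of 0.1, so arrays were quantile normalized. The brightest probe set by mean stood for a gene, and the lowest 40% (under 48.4) were left out, which left 13718 genes. Genotypes, taken from the labels, were compared with limma 3.58.1 (R 4.3.3), with prior and residual degrees of freedom of 4.18 and 4, and Benjamini-Hochberg adjustment over all genes at 0.05. Figures used matplotlib 3.10.9 (Python 3.11.15, pandas 2.3.3). The test was run on simulated data in which a gene had the same normal spread on every array. Such data hold no array that stands apart as f/f 3 does, so they do not show how the test behaves here. The number of arrays limits the precision.

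The members, the compartments, the 6 lists of other genes and the rule for named genes were chosen with earlier results of these data known. The rule names 21 fixed members, the 8 with the smallest p in each direction, Errfi1, up to 2 genes of each list, Hsf1, Cirbp and Rbm3 (not analysed here); other genes were chosen after their values were seen. Alternatives covered scaling, brightness filter, probe set per gene, variance model, array weights, leaving out each array, a replicate block, a pseudocount of 1 or 64, and a threshold of 0.1.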

Additional observations from a re-analysis of the deposited data

How the results depend on the processing

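Over 16 alternatives, 26 of 28 named members kept their sign. The exceptions were Hspa4, with -0.019 to 0.29 over single arrays left out, and Dnajc12, with -0.42 to 0.080. Hsf4 gave 0.025 with array weights and -0.21 to 0.053 over single arrays left out, and Hsbp1 gave 0.027 with the mean of probe sets. The count of chaperone genes called was 4 with array weights (Hsph1, Dnaja1, Hspa5 and Hsp90aa1), 1 with the mean of probe sets (Hsph1), 1 at a threshold of 0.1 (Hsph1), and 0 to 2 with 1 array left out, the 2 without f/f 3 (Hsph1 and Hspa1b); it was 0 elsewhere. Over all genes the calls were 13, and 21 at that threshold, 20 with the mean of probe sets, 23 with trend and robust variances, 214 with array weights (0.178 for f/f 3, 0.963 to 1.84 for the others) and 4 to 91 with 1 array left out, the 4 without d/d 1 and the 91 without f/f 3. Where 1 array was left out, its genotype had 2 arrays and limma pooled the spread. With the replicate number as a block, 1 gene and 0 members were called. Same-numbered arrays correlated at -0.0032, -0.14 and -0.47 in their deviations, and differently numbered ones at -0.47 to 0.43. With 3 arrays per genotype these values cannot decide whether the numbers pair the samples, and the labels do not say. Without f/f 3, 11 of the 64 members were under an unadjusted p of 0.05 as higher and 4 of the 64 as lower. Over all genes these shares were 5.89% and 5.34%. The cause of these shifts was not tested. Genes near the brightness limit carry the least signal over background.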
